A study of Rattus norvegicus with 10 samples.

Results

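The cultures described here are myoblasts, the dividing precursors of muscle fibres, grown from the soleus muscle of rats after 1 day of hindlimb suspension (HS1) and after 14 days of it (HS14). They were taken as the early and the late state of unloading in which, against the control rats, more genes were lowered than raised. The comparison used 4 libraries, 2 of HS1 and 2 of HS14, of the 10 libraries in the whole series. The other 6 libraries, 2 each of unsuspended rats (Control) and of rats suspended for 3 and 7 days (HS3, HS7), are given only as a reference for level. All rats were male Wistar rats aged 3 months, with no transgene or drug named for any group, and what the HS1 and HS14 groups share is the suspension itself, in which the tail is lifted so that the hind paws do not touch the floor. The cells were freed from the muscle with collagenase and grown in a serum-rich growth medium. They also passed through a pre-plating step that leaves behind cells that stick quickly to plastic. The study's methods give 1 day of culture between that step and RNA sequencing. The libraries thus describe cells after a period in culture and not the cells in the unloaded muscle. The sources used here do not say if the libraries of a group stem from separate animals or cultures, and p-values then measure only the spread between these libraries, which may be technical.

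The soleus is a slow postural muscle that works against gravity all day, and it loses mass quickly when it is unloaded. Its repair rests on satellite cells, which sit between the fibre and its basement membrane, and which on activation become myoblasts that divide, switch on Myogenin, leave the cell cycle and fuse. They do so in a matrix made largely by neighbouring fibro-adipogenic progenitors and fibroblasts, and Notch, Wnt, BMP and growth factor signals between these cells decide whether a myoblast goes on dividing, stays quiescent or differentiates.

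The total count was between 22304805 and 23931121 in the HS1 libraries and between 23195342 and 28175200 in the HS14 libraries. Levels are in CPM, a gene's count scaled to a library of fixed size, after TMM scaling over the 10 libraries, and 3 counts, taken as the smallest detectable level, correspond to 0.104 to 0.130 CPM in these libraries. Library values are given with the first library of a group first. Log2 CPM correlated at 0.991 between the HS1 libraries and at 0.993 between the HS14 libraries, across genes, which are not independent replicates, and at 0.972 across the groups. Fold changes are HS14 over HS1. They and their adjusted p-values come from edgeR's quasi-likelihood test fitted to the 4 libraries and adjusted by Benjamini-Hochberg over all 13015 genes tested. A gene passed the test at an adjusted p under 0.01, and it was called a differentially expressed gene (DEG) if its log2 fold change was also beyond 1.5 in either direction.

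Between day 1 and day 14 the cultures differed in both directions to a similar extent. Of the 13015 genes tested, 179 were DEGs higher in HS14 (1.38%) and 157 were DEGs lower in HS14 (1.21%). Without the fold threshold, 1561 genes were higher (12%) and 1665 were lower (12.8%), which together are 24.8% of the genes, and the median log2 fold change of all genes was 0.00. The HS1 and HS14 libraries did not overlap for 68.4% of all genes tested, so a lack of overlap alone says little at 2 libraries per group. A gene symbol was at hand for 770 identifiers, 726 of which were tested. These are genes that the study had called against Control in the same series, so they hold a larger share of changed genes: 31.1% of them passed the test as higher and 21.6% as lower, 106 were DEGs higher and 86 DEGs lower, and their median log2 fold change was 0.25. The counts for gene groups below are to be read against these shares and are not independent evidence of a direction. In bulk RNA, fewer cells of a type and less RNA per cell cannot be told apart.

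**Figure D1:**
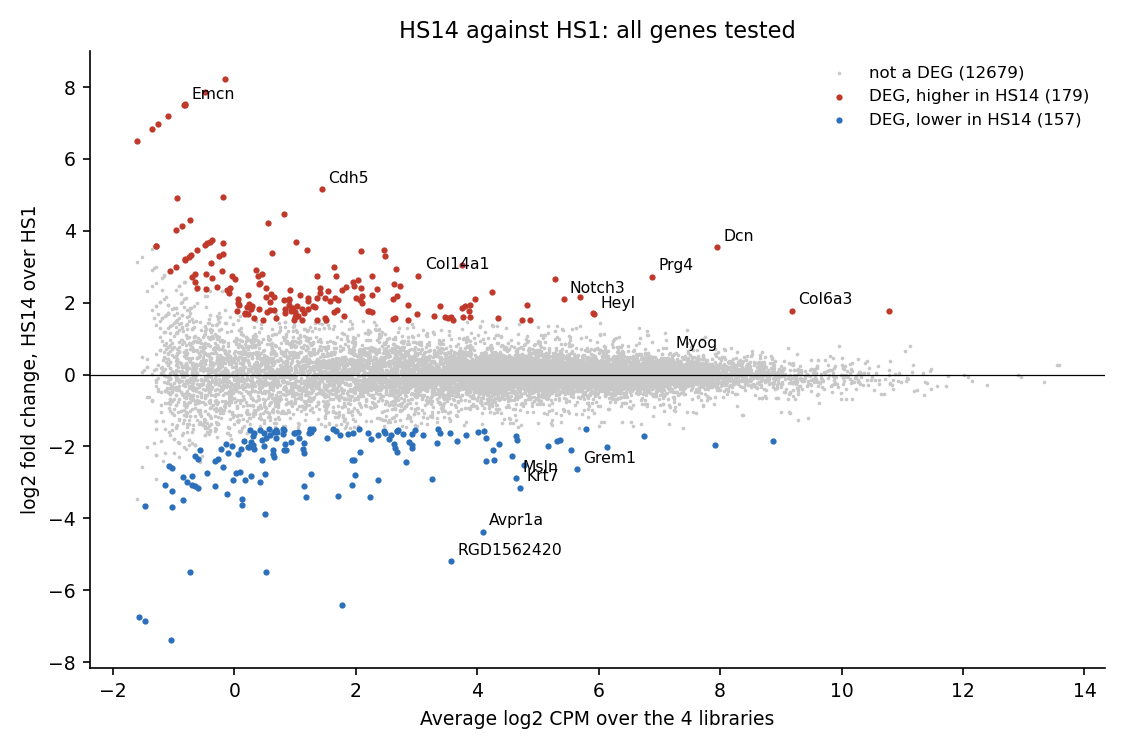
Each point is 1 of the 13015 genes tested, with its average log2 CPM over the 4 libraries on the x axis and its log2 fold change, HS14 over HS1, on the y axis. The 179 red points are DEGs higher in HS14 and the 157 blue points DEGs lower in HS14; Dcn stands apart among abundant genes with a log2 fold change of 3.55, and the points at the left edge that reach beyond 6 are genes at or near 0 counts in one group, whose fitted fold change depends on the prior count.

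The largest rise among the well-expressed genes was that of decorin (Dcn), a small leucine-rich proteoglycan that binds collagen fibrils and TGF-beta. Its level was 37.3 and 37.9 CPM in the HS1 libraries and 439 and 455 CPM in the HS14 libraries. The groups lay far apart and each pair of libraries was tight, and the difference was 11.7-fold (log2 fold change 3.55 ± 0.06 SE, adjusted p = 7.74e-18). Control cultures had 166 and 160.0 CPM, so Dcn was below Control on day 1 and above it on day 14. Proteoglycan 4 (Prg4, lubricin), a surface lubricant of joints and tendons, was at 29.5 and 29.9 CPM in HS1 and at 219.5 and 181 CPM in HS14, a 6.63-fold difference (log2 2.73 ± 0.09, adjusted p = 8.05e-13), and its Control level of 169 and 175 CPM was close to the HS14 values. The alpha3 chain of collagen VI (Col6a3), part of the microfibrils around muscle fibres, rose from 249 and 259 CPM to 980.1 and 792 CPM (3.43-fold, adjusted p = 7.29e-09), against 909.7 and 961 CPM in Control.

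The other genes with the largest rises at this level of expression were mostly secreted or surface proteins. Integrin alpha8 (Itga8), a receptor for matrix ligands such as nephronectin, went from 10.7 and 9.85 to 71.3 and 59.5 CPM (6.26-fold, adjusted p = 2.62e-12). Its HS14 level exceeded the Control level of 31.9 and 30.1 CPM. Matrix Gla protein (Mgp), an inhibitor of calcification, was at 20.1 and 15.8 CPM in HS1 and 89.7 and 74.5 CPM in HS14 (4.5-fold, adjusted p = 2.48e-10). The fibril-associated collagen Col14a1 was at 1.8 and 2.13 CPM in HS1 and 13.9 and 13.1 CPM in HS14 (6.76-fold, adjusted p = 3.96e-09). Thrombospondin 4 (Thbs4), a matrix glycoprotein of tendon and muscle, rose 4.32-fold to 27.2 and 21.6 CPM, and the lymphatic growth factor Vegfd rose 3.6-fold to 22.1 and 18.2 CPM. These last genes stayed well below their Control levels of 69.6 and 71.4 CPM for Thbs4 and 66.6 and 64.8 CPM for Vegfd. The remaining rises were 4.95-fold for the mismatch repair gene Msh3, 4.3-fold for the receptor Notch3, 3.81-fold for the membrane peptidase neprilysin (Mme), 3.4-fold for the secreted matrix protein Olfml2a, 3.26-fold for the TGF-beta-induced matrix protein Tgfbi and 3.25-fold for the neuregulin receptor Erbb3. In each of these 14 genes both HS14 libraries lay above both HS1 libraries, which the choice of genes required.

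The genes that fell furthest formed a different and mixed set. It held a receptor, a BMP antagonist, a keratin of epithelia and a surface protein of mesothelium. The steepest fall was that of the locus RGD1562420, from 23.1 and 22.6 CPM to 0.622 and 0.632 CPM (36.8-fold lower, log2 −5.20 ± 0.20, adjusted p = 1.26e-12). The vasopressin receptor Avpr1a, a receptor that raises intracellular calcium, fell from 33.9 and 29.9 CPM to 1.18 and 2.02 CPM (20.7-fold lower, log2 −4.37 ± 0.18, adjusted p = 3.28e-12). Control cultures lay near HS1 for both, at 16.9 and 16.2 CPM for RGD1562420 and 22.9 and 23.7 CPM for Avpr1a. Keratin 7 (Krt7), an intermediate filament protein of simple epithelia, was at 44.5 and 46.9 CPM in HS1 and 3.87 and 6.83 CPM in HS14 (8.84-fold lower, adjusted p = 1.99e-09). Mesothelin (Msln), a surface protein of mesothelial cells, was at 39.5 and 46 CPM in HS1 and 5.46 and 6.36 CPM in HS14 (7.38-fold lower, adjusted p = 5.49e-12). For both genes the HS14 level was also far below the Control level, which was 51.1 and 57.9 CPM for Krt7 and 25.7 and 26.8 CPM for Msln.

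Gremlin 1 (Grem1), a secreted antagonist of BMP ligands, was at 80.5 and 87.6 CPM in HS1 and 12.5 and 15.1 CPM in HS14 (6.22-fold lower, log2 −2.64 ± 0.10, adjusted p = 8.05e-13). It was already below Control on day 1, with 262 and 256 CPM in Control. The secreted proteoglycan endocan (Esm1), known from endothelium, fell 5.26-fold, from 28.7 and 29.5 to 4.94 and 6.41 CPM. The small heat shock protein of striated muscle Hspb7 fell 4.33-fold, from 74.5 and 72.1 to 17 and 17.5 CPM. The deubiquitinating enzyme Uchl1, abundant in neurons, fell 4.05-fold, from 106 and 113 to 28.4 and 26.5 CPM. Further falls of 3.77-fold to 7.56-fold were seen for the neural adhesion molecule neurotrimin (Ntm), the cysteine protease inhibitor Cst6, the kelch-domain gene Klhdc8a, the basement membrane collagen chain Col4a5, the synuclein Sncg and the locus LOC290595. The adjusted p-values of the 14 genes named here that fell furthest reached from 8.05e-13 for Grem1 to 4.74e-08 for LOC290595.

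**Figure D2:**
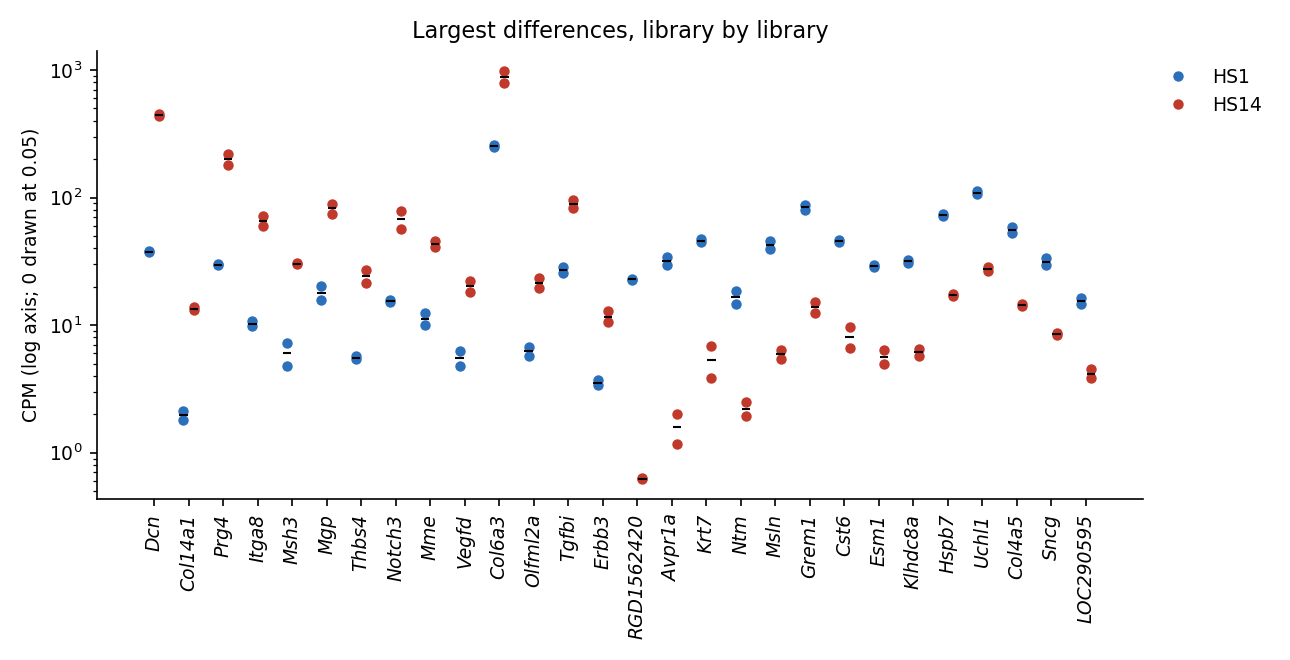
CPM on a log axis (y) of 14 of the 15 genes with the largest rise and 14 of the 15 with the largest fall (x) among DEGs with an average log2 CPM of at least 3 in edgeR; each point is 1 library (blue HS1, red HS14) and each bar the mean of 2. The red points lie above the blue points for the first 14 genes and below them for the others, which the choice of genes required. The spread within a group is small beside the gap, widest for Avpr1a and Krt7 in HS14 and Msh3 in HS1.

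Structural matrix proteins formed the group in which a rise was most widespread by count. Of the 48 tested, 31 were higher in HS14 (64.6%), 4 were lower and 13 did not pass the test, and the median log2 fold change was 0.93; 16 were DEGs higher and 2 DEGs lower. The proteoglycan lumican (Lum), which organizes collagen fibrils, was at 0.573 and 1.13 CPM in HS1 and 9.23 and 9.78 CPM in HS14, a 11-fold rise (adjusted p = 1.35e-08), and Igsf10, a secreted immunoglobulin-superfamily protein, was at 1.06 and 1.22 CPM in HS1 and 8.92 and 6.62 CPM in HS14 (6.71-fold, adjusted p = 1.77e-07). All 31 raised members had been below Control on day 1. Only genes called against Control had a symbol, so this position is partly built into which genes could be named. On day 14, 17 of them were still below the Control mean and 14 were above it, with no test of that difference. The 4 lower members were Col4a5, the elastic-fibre protein Efemp1, the matrix protein Ltbp2 and the basement membrane-anchoring proteoglycan Prelp. Ltbp2 was the most abundant of these, at 872 and 824 CPM in HS1 and 360.4 and 358 CPM in HS14 (log2 −1.26 ± 0.05, adjusted p = 2.62e-12). The main chain of type I collagen, Col1a1, did not pass the test, at 2177 and 2165 CPM in HS1 and 2403 and 2211 CPM in HS14 (log2 0.06 ± 0.05, adjusted p = 0.343), and both groups were far below the 6545 and 7013 CPM of Control.

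Of 24 tested enzymes and inhibitors that modify the matrix, 11 were higher and 4 lower, and their median log2 fold change was 0.48. The metalloproteinase inhibitor Timp3 was at 0.532 and 0.781 CPM in HS1 and 6.81 and 7.8 CPM in HS14 (10.9-fold, adjusted p = 3.38e-08), above its Control level of 1.46 and 1.48 CPM. The protease inhibitor Tfpi2 rose 5.51-fold, from 1.64 and 2.17 to 10.5 and 10.8 CPM (adjusted p = 4.65e-08), and Adamtsl3, an ADAMTS-like matrix protein, rose 3.09-fold, from 4.01 and 4.99 to 13.9 and 14.4 CPM (adjusted p = 4.89e-07). Adamtsl3 remained below the Control level of 41.6 and 45.2 CPM. The plasminogen activator inhibitor Serpinb2 went the other way, from 12.3 and 10.3 to 2.56 and 3.75 CPM (3.67-fold lower, adjusted p = 1e-06), together with heparanase (Hpse), the serpin Serpinb7 and the heparan sulfate sulfatase Sulf2.

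Markers of fibro-adipogenic progenitors and fibroblasts, the cells that pre-plating is meant to remove, moved with the matrix genes, and 10 of the 19 tested are also in the matrix list. Of 19 tested, 10 were higher, 2 were lower and 7 did not pass, and their median log2 fold change was 0.76. The summed level of the list was 2783 and 2759.8 CPM in HS1, 3818 and 3547 CPM in HS14 and 9008 and 9524 CPM in Control, and Col1a1 made up most of it in each. Among the defining markers the PDGF receptor Pdgfra was at 30.5 and 31.4 CPM in HS1 and 59 and 57.4 CPM in HS14 (log2 0.89 ± 0.08, adjusted p = 1.06e-07), and Dcn and Lum rose as given above. The surface glycoprotein Thy1 moved the other way, from 160.3 and 157 to 77.7 and 67.5 CPM (log2 −1.15 ± 0.07, adjusted p = 7.09e-10), and so did the progenitor transcription factor Osr1, from 7.21 and 5.64 to 1.11 and 1.43 CPM (5.18-fold lower, adjusted p = 1.35e-06). Dermatopontin (Dpt) was at 0.819 and 0.608 CPM in HS1 and 1.24 and 1.6 CPM in HS14 and did not pass (adjusted p = 0.0967). No defining marker of this list with a symbol was at 0 in any of the 4 libraries. The part of these cells in the matrix result was not tested.

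**Figure D3:**
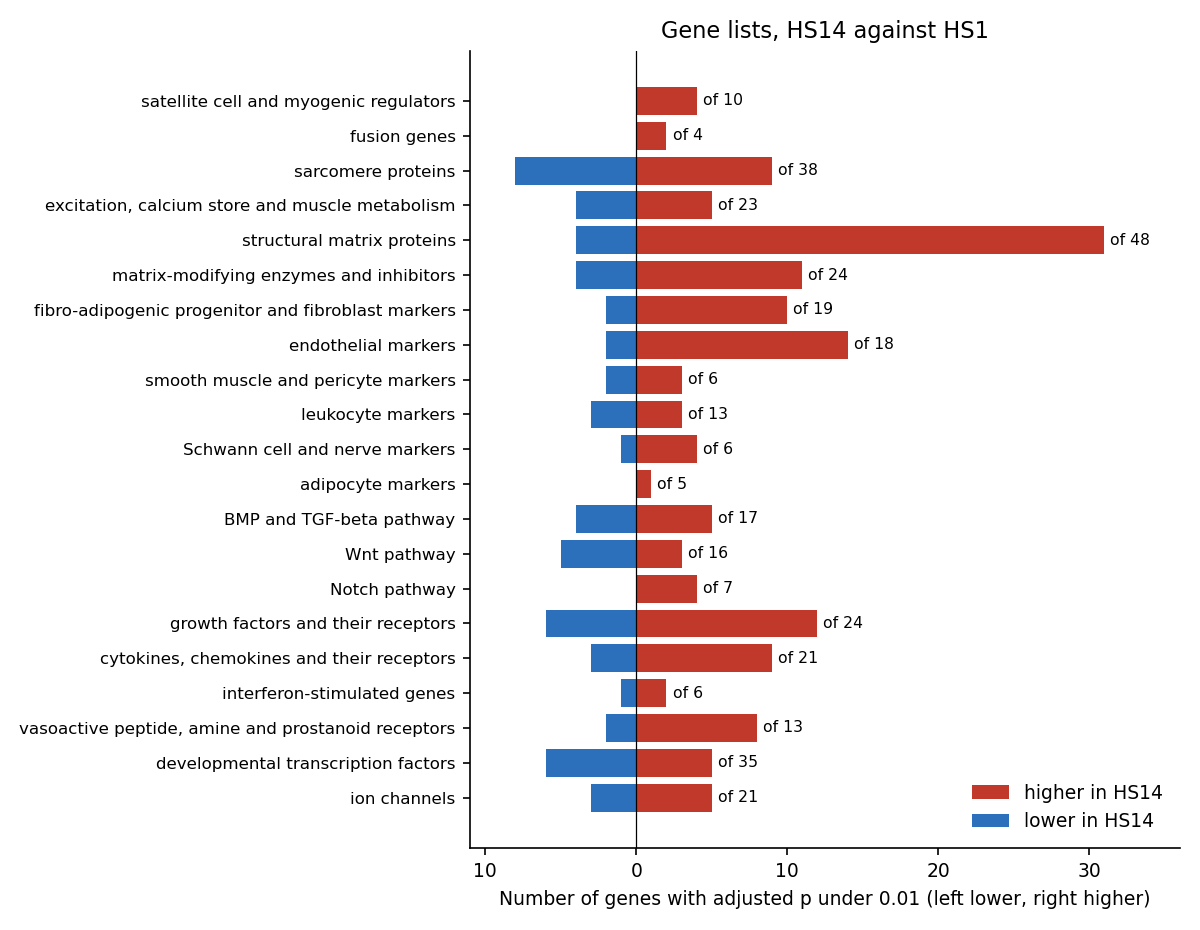
Number of genes (x axis) in each list (y axis) that passed the edgeR test at an adjusted p under 0.01, with those lower in HS14 to the left in blue and those higher to the right in red; the number beside each bar is how many members were tested. Structural matrix proteins (31 of 48) and endothelial markers (14 of 18) lean most to the right by count, sarcomere proteins are split between 9 higher and 8 lower, and the cell cycle list, with 1 gene, is left out. Several endothelial markers were admitted to the test only by their HS14 levels.

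Among the myogenic genes, Myogenin (Myog), the transcription factor that drives terminal differentiation, was higher in HS14. Its level was 116 and 107 CPM in HS1 and 182 and 153 CPM in HS14 (log2 0.57 ± 0.08, adjusted p = 1.69e-05). Both HS14 libraries stayed under the Control level of 233 and 244 CPM and far under the HS7 level of 882 and 670.4 CPM. Of 10 tested satellite cell and myogenic regulators, 4 were higher, none was lower and 6 did not pass, and the median log2 change was 0.59. The other 3 were Sox8, a SOX factor expressed in satellite cells, the Notch effector Heyl and the FGF receptor Fgfr4. Sox8 was at 1.06 and 0.955 CPM in HS1 and 6.78 and 4.38 CPM in HS14 (5.44-fold, adjusted p = 4.44e-06), close to 5.26 and 5.69 CPM in Control. Fgfr4, an FGF receptor of myogenic cells, was at 69.2 and 68.3 CPM in HS1 and 133 and 126 CPM in HS14 (log2 0.89 ± 0.06, adjusted p = 5.73e-09), so day 1 was at the Control level of 66.7 and 68.6 CPM and day 14 above it. Pax7, Myf5 and MyoD, the factors that define satellite cells and myoblasts, had no identifier at hand and were not analysed here, so Myog is the only defining myogenic marker that could be checked.

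Among the 4 fusion genes, Mymk and Tmem182 were higher and none was lower. Myomaker (Mymk), the membrane protein required for myoblast fusion, was at 51.8 and 45.4 CPM in HS1 and 76.3 and 65.3 CPM in HS14 (log2 0.52 ± 0.09, adjusted p = 0.000134). Tmem182, a membrane protein that restrains fusion, was at 11.5 and 8.94 CPM in HS1 and 27.7 and 25.4 CPM in HS14 (2.56-fold, adjusted p = 2.02e-07). Myomixer (Mymx), the partner of Myomaker, was at 3.4 and 4.82 CPM in HS1 and 7.57 and 5.6 CPM in HS14 and did not pass (log2 0.67 ± 0.22, adjusted p = 0.0257). With all 10 libraries in one edgeR fit neither Mymk (adjusted p = 0.0959) nor Tmem182 (adjusted p = 0.0295) passed, and Mymx passed in 4 of the 9 alternative settings.

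Sarcomere genes were split. Of 38 tested, 9 were higher, 8 were lower and 21 did not pass, no member was a DEG and the median log2 fold change was 0.12. These shares, 23.7% and 21.1%, were below the 31.1% and 21.6% of all tested genes with a symbol. The unconventional myosin Myo18b was at 3.4 and 3.04 CPM in HS1 and 6.88 and 6.57 CPM in HS14 (2.05-fold, adjusted p = 0.000664). The myosin heavy chain Myh15 rose 2.21-fold to 4.63 and 4.21 CPM (adjusted p = 0.00365), a call lost when the first library of either group was left out, with DESeq2 and in the fit of all 10 libraries. The regulatory light chain of fast fibres, Mylpf, was lower, at 166 and 164 CPM in HS1 and 93.3 and 98.6 CPM in HS14 (log2 −0.81 ± 0.06, adjusted p = 9.44e-09). All 8 lowered members were also below Control on day 14. Embryonic myosin (Myh3) was at 194 and 164 CPM in HS1 and 172 and 159 CPM in HS14 and slow myosin (Myh7) at 3.6 and 3.3 CPM in HS1 and 3.84 and 4.21 CPM in HS14, and neither passed (adjusted p = 0.145 for Myh3 and 0.545 for Myh7). In the fit of all 10 libraries, 3 sarcomere genes were higher and none lower in place of 9 and 8.

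Genes of excitation, the calcium store and muscle metabolism were split likewise, with 5 of 23 tested higher (21.7%), 4 lower (17.4%) and a median log2 fold change of 0.07. Both shares were again below those of all tested genes with a symbol. The higher ones were the ryanodine receptor Ryr3, the calcium pump Atp2a3, the acetylcholine receptor subunit Chrnd, the voltage sensor Cacna1s and Prkag3, a regulatory subunit of AMP-activated kinase. The lower ones were phospholamban (Pln), sarcolipin (Sln), calsequestrin 2 (Casq2) and the ryanodine receptor Ryr1. Atp2a3 was at 9.70 and 12.2 CPM in HS1 and 21.4 and 22.7 CPM in HS14 (log2 0.99 ± 0.13, adjusted p = 1.18e-05). Casq2, which stores calcium in slow and cardiac muscle, was at 32.1 and 29.7 CPM in HS1 and 16.3 and 16.2 CPM in HS14 (log2 −0.95 ± 0.10, adjusted p = 9.73e-07), and Pln, an inhibitor of the slow calcium pump, was at 3.44 and 2.34 CPM in HS1 and 1.11 and 1.01 CPM in HS14 (2.77-fold lower, adjusted p = 0.0024). Ryr3 rose 2.4-fold to 4.81 and 3.29 CPM (adjusted p = 0.00201). The counts in this list fell to 3 higher and 1 lower in the fit of all 10 libraries, to 3 and 2 with DESeq2, and to 1 higher without the first HS14 library and 2 lower without the first HS1 library.

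The Notch pathway had the largest median change of the signalling lists, a log2 fold change of 1.49 over 7 tested genes, of which 4 were higher and none was lower. Notch receptors are cleaved when they bind a ligand on a neighbouring cell, and the freed domain acts with the DNA-binding protein RBPJ on targets of the HES and HEY families; in satellite cells the pathway is known for keeping cells quiescent and undifferentiated. The receptor Notch3 was at 15.2 and 15.9 CPM in HS1 and 78.7 and 56.6 CPM in HS14 (4.3-fold, log2 2.10 ± 0.14, adjusted p = 7.93e-08). The target Heyl was at 25.9 and 29.3 CPM in HS1 and 100.1 and 79.9 CPM in HS14 (3.21-fold, log2 1.68 ± 0.10, adjusted p = 2.13e-09). For both, the first HS14 library was the higher of its group, and even the lower one was above every HS1 and Control library, the Control levels being 29.6 and 33.4 CPM for Notch3 and 51.3 and 47.7 CPM for Heyl. The ligand Dll1 was at 2.38 and 1.82 CPM in HS1 and 6.33 and 5.73 CPM in HS14 (2.82-fold, adjusted p = 7.94e-05), and the E3 ligase Dtx4, a regulator of the pathway, was at 2.17 and 1.74 CPM in HS1 and 6.53 and 7.16 CPM in HS14 (3.43-fold, adjusted p = 9.14e-06). The receptor Notch1, in contrast, was at 9.91 and 6.16 CPM in HS1 and 10.3 and 7.42 CPM in HS14, where the groups overlapped and the test was not passed (adjusted p = 0.693). Hey2, of the HEY family, and Dlk1 did not pass either. Notch3 is also a marker of pericytes and smooth muscle, and the values of that list are given with the other cell types.

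The 250 bases before the start of 3 of these genes are shown because the genes are a receptor, a ligand and a target of one pathway, each higher in HS14. The sequences are from RefSeq on the rat build GRCr8, which is not the build the reads were mapped to, and 581 of the 770 genes with a symbol had a promoter there. They are written 5′ to 3′ on the gene's strand, at chr7:11834586-11834835 (minus strand) for Notch3, chr5:140793021-140793270 (plus strand) for Heyl and chr1:64993275-64993524 (minus strand) for Dll1. Capitals mark matches to TGGGAA, the core of the sequence that RBPJ binds, read on both strands so that TTCCCA also counts.
Notch3: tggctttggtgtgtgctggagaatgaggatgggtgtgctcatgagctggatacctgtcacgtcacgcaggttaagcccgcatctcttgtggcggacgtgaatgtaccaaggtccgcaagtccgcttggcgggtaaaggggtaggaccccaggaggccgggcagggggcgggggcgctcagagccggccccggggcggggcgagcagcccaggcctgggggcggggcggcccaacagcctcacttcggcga
Heyl: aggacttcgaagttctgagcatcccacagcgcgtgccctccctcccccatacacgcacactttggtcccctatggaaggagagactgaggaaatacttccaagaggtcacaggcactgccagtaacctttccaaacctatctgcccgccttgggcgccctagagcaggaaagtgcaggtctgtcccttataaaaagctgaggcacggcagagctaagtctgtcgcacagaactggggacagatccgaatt
Dll1: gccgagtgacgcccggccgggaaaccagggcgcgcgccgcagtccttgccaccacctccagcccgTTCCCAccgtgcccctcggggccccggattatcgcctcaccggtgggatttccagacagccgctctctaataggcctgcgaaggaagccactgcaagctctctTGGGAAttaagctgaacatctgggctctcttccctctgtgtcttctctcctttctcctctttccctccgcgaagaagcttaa
The Dll1 sequence held 2 matches, beginning 185 and 82 bases before the start, and the Notch3, Heyl and Dtx4 sequences held none. Of 33469 promoters of the same length, 22.1% held at least 1 match, so 1 of 4 is near the share of all promoters. The Notch3 sequence held 4 matches to the GC box GGGCGG, read on both strands, which 30.5% of all promoters hold, and the Heyl sequence held 1 match to the TATA box TATAAA, which 12.9% hold. No match says only that these letters are not in this window.

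In the BMP and TGF-beta list, 5 of 17 tested genes were higher and 4 lower, and the median log2 change was 0.13. The ligand Tgfb2, the TGF-beta anchor Lrrc32, the receptor Acvrl1, the co-receptor Eng and the induced protein Tgfbi were higher. Tgfbi, the largest of these changes, was at 25.5 and 28.6 CPM in HS1 and 95.9 and 83.5 CPM in HS14 (3.26-fold, adjusted p = 7.8e-11), still under 209 and 217 CPM in Control. Acvrl1 was at 4.71 and 4.82 CPM in HS1 and 11.3 and 8.47 CPM in HS14 (2.05-fold, adjusted p = 0.000281). Among the lower ones were Grem1, Wfikkn2 and the ligand Bmp2, which was at 10.9 and 11.3 CPM in HS1 and 6.74 and 6.45 CPM in HS14 (log2 −0.77 ± 0.16, adjusted p = 0.000857), against 22.5 and 23.1 CPM in Control. The ligand Bmp2 and Grem1, which binds it or its relatives, were thus lower in the same cultures. Wfikkn2, an inhibitor of myostatin and GDF11, was at 0.696 and 0.434 CPM in HS1 and had no count in either HS14 library, which makes it at least 4.91-fold lower if 3 counts per library are taken as the floor. Only its HS1 level admitted Wfikkn2 to the test, so it could pass only as lower.

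In the Wnt list, 3 of 16 tested genes were higher and 5 lower, with a median of 0.08. The ligand Wnt5a, known for non-canonical signalling, was at 23.2 and 29.3 CPM in HS1 and 57.9 and 47.9 CPM in HS14 (log2 0.99 ± 0.11, adjusted p = 3.29e-06), and Wnt4 went the other way, from 36.4 and 31 to 13.3 and 13.6 CPM (log2 −1.36 ± 0.11, adjusted p = 2.68e-08). The secreted inhibitors also parted. Wif1, which binds Wnt ligands, rose 5.77-fold from 1.56 and 1.82 to 11.8 and 8.01 CPM (adjusted p = 1.84e-07), while Dkk3, a member of the Dickkopf family, fell 3.07-fold from 17.8 and 16.6 to 5.81 and 5.56 CPM (adjusted p = 1.02e-07). The intracellular regulator Dact1 was at 5.0 and 2.82 CPM in HS1 and 10.3 and 9.14 CPM in HS14 (2.43-fold, adjusted p = 0.000157). The other lower genes were the ligand Wnt10b and 2 genes of R-spondin signalling, Rspo1 and its receptor Lgr6.

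Of 24 growth factors and their receptors, 12 were higher and 6 lower, with a median log2 fold change of 0.84. Several ligands that act on myoblasts or vessels rose from low levels. Hepatocyte growth factor (Hgf), an activator of satellite cells, was at 1.39 and 1.56 CPM in HS1 and 6.71 and 6.07 CPM in HS14 (4.25-fold, adjusted p = 2.66e-06), still below 10.6 and 9.49 CPM in Control. Insulin-like growth factor 1 (Igf1), which promotes muscle growth, was at 1.88 and 1.3 CPM in HS1 and 6.15 and 6.7 CPM in HS14 (3.94-fold, adjusted p = 6.66e-06), about its Control level of 5.23 and 5.39 CPM. Pdgfb, a ligand that recruits pericytes, was at 0.901 and 1.39 CPM in HS1 and 5.39 and 4.34 CPM in HS14 (4.19-fold, adjusted p = 2.42e-05), above 0.713 and 1.21 CPM in Control. The neurotrophin receptor Ngfr rose 6.75-fold to 4.42 and 3.71 CPM (adjusted p = 4.78e-06). The 6 lower genes, named after their values were seen, were Igf2, the IGF-binding protein Igfbp4, the lymphatic receptor Flt4 and 3 ligands of the EGF family, Nrg1, Tgfa and Ereg.

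Of 21 cytokines, chemokines and their receptors, 9 were higher and 3 lower, with a median of 0.83, and 7 were DEGs higher. Yet the list summed to 442 and 458 CPM in HS1, 441 and 430 CPM in HS14 and 1152 and 1120 CPM in Control. Interleukin 6 (Il6), a cytokine that muscle cells and fibroblasts secrete, was at 0.491 and 0.174 CPM in HS1 and 4.11 and 3.54 CPM in HS14 (11.1-fold, adjusted p = 3.28e-06), with 2.06 and 1.59 CPM in Control. Its relative Il11 was at 0.901 and 0.608 CPM in HS1 and 5.81 and 4.42 CPM in HS14 (6.63-fold, adjusted p = 1.92e-06), with 1.27 and 0.987 CPM in Control. The chemokine Cxcl14 was at 0.983 and 0.26 CPM in HS1 and 5.36 and 4.8 CPM in HS14 (7.9-fold, adjusted p = 5.84e-06). All 3 were above Control on day 14, among 5 of the 9 raised members that were, while 4 were below it. The HS1 levels of Il6 and Cxcl14 alone would not have admitted them to the test, so their calls as higher are partly fixed by the filter. The interleukin 1 receptor antagonist Il1rn did not pass, at 2.13 and 2.3 CPM in HS1 and 2.83 and 2.74 CPM in HS14 (adjusted p = 0.418), and in both groups it was far below the 39.7 and 40.2 CPM of Control. The lower genes were the interleukin 1 family receptors Il1rl1 and Il1rl2 and the chemokine Cxcl3. Without the first HS14 library, 5 genes of this list were higher in place of 9.

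Receptors for vasoactive peptides, amines and prostanoids were higher in 8 of 13 tested cases, against Avpr1a and the prostaglandin receptor Ptger1, which were lower, with a median of 0.66. On day 14, 7 of the 8 raised members were below the Control mean. This list summed to 71.8 and 66.2 CPM in HS1, 67.6 and 64.1 CPM in HS14 and 183 and 187 CPM in Control. The endothelin receptor Ednra was at 0.942 and 1.78 CPM in HS1 and 6.6 and 5.56 CPM in HS14 (4.42-fold, adjusted p = 1.08e-05), and the parathyroid hormone receptor Pth1r was at 0.819 and 1.3 CPM in HS1 and 4.98 and 4.51 CPM in HS14 (4.41-fold, adjusted p = 1.86e-05). The prostaglandin F receptor Ptgfr rose 2.84-fold to 4.53 and 3.24 CPM (adjusted p = 0.000628), a call lost without the first HS14 library. With DESeq2, 4 genes of this list were higher in place of 8, and without the first HS14 library 3 were.

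Of 35 developmental transcription factors, 5 were higher and 6 lower, with a median of −0.19, a share below that of all genes with a symbol in both directions. Sox8 and the B-cell factor Ebf1, which is also expressed in mesenchymal progenitors, rose, the latter from 5.2 and 5.42 to 11.7 and 12.3 CPM (2.21-fold, adjusted p = 2.27e-05). Osr1 and Hmga2, a chromatin protein of proliferating progenitors, fell, the latter from 13.1 and 14.2 to 5.98 and 6.11 CPM (log2 −1.20 ± 0.15, adjusted p = 7e-06). Of 21 ion channels, 5 were higher (23.8%) and 3 lower (14.3%), with a median of −0.29, also below both of those shares. The water channel Aqp1 fell from 32.6 and 32.2 to 14.8 and 11.1 CPM (log2 −1.34 ± 0.12, adjusted p = 1.16e-07), against 118 and 128 CPM in Control. The calcium channels Cacna1c and Cacna1s passed as higher, at 7.5 and 4.3 CPM in HS14 for Cacna1c and 14.9 and 14.5 CPM for Cacna1s (log2 1.13 for Cacna1c and 0.60 for Cacna1s), and both lost the call with DESeq2 and without the first HS14 library. Of 6 interferon-stimulated genes, the membrane proteins Ifitm1 and Ifitm3 were higher and the ISG15 protease Usp18 was lower, from 10.3 and 10.2 to 2.28 and 2.36 CPM (4.49-fold lower, adjusted p = 1.02e-07). Of 41 listed cell cycle genes only the cyclin-dependent kinase inhibitor Cdkn1c had a symbol at hand, so the cycle as such was not analysed here. Cdkn1c was at 1.06 and 2.0 CPM in HS1 and 7.88 and 8.34 CPM in HS14 (5.22-fold, adjusted p = 9.64e-07), which was above 4.99 and 5.85 CPM in Control and below 78.3 and 39.9 CPM in HS7, and it did not pass in the fit of all 10 libraries (adjusted p = 0.0173).

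Markers of other cell types were examined as whole lists. Endothelial markers had the highest share of raised genes of any list with more than 1 member, 14 of 18, with 2 lower, and a median log2 fold change of 2.28, which did not move when the 2 genes at 0 were set to their bounds. Several of these genes were barely present on day 1. Cdh5, Tie1, Vwf, Esam, Emcn and Fgd5 were admitted to the test only by their HS14 levels, so they could pass it only as higher. The share and the median rest partly on such genes. The junction protein VE-cadherin (Cdh5) was at 0.164 and 0.0868 CPM in HS1, under the detection floor in one library, and at 5.15 and 4.42 CPM in HS14 (adjusted p = 3.97e-08), and the receptor Tie1 was at 0.246 and 0.26 CPM in HS1 and 3.6 and 3.12 CPM in HS14 (adjusted p = 1.7e-06). Von Willebrand factor (Vwf) was at 0.0819 and 0.174 CPM in HS1 and 2.56 and 2.36 CPM in HS14 (adjusted p = 6.43e-06), and the VEGF receptor Kdr at 0.573 and 0.781 CPM in HS1 and 3.18 and 3.2 CPM in HS14 (4.62-fold, adjusted p = 8.41e-05). Cdh5, Tie1 and Vwf thus had at most 6 counts in either HS1 library and between 2.36 and 5.15 CPM in HS14, whereas Kdr was already above the floor on day 1 and had 8.0 and 6.8 CPM in HS3, above its HS14 level. Esam, a junction protein, was at 0.328 and 0.174 CPM in HS1 and 1.31 and 1.47 CPM in HS14 (adjusted p = 0.00174). The sialomucin Emcn had no count in HS1 and 1.04 and 0.758 CPM in HS14, at least 7.10-fold higher with 3 counts per library as the floor, and Fgd5, an endothelial exchange factor, had no count in HS1 and 0.83 and 1.01 CPM in HS14, at least 7.28-fold higher. Cdh5 was at 0.237 and 0.152 CPM in Control, 0.608 and 0.637 CPM in HS3 and 3.24 and 1.98 CPM in HS7. The summed level of the list was 86.9 CPM in both HS1 libraries, between 103 and 108 CPM in HS14 and between 217 and 227 CPM in Control, and Esm1, Flt4, Eng, Thbd and Acvrl1 carried most of it in each HS1 library. Whether endothelial cells themselves were present in the HS14 cultures was not tested.

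**Figure D4:**
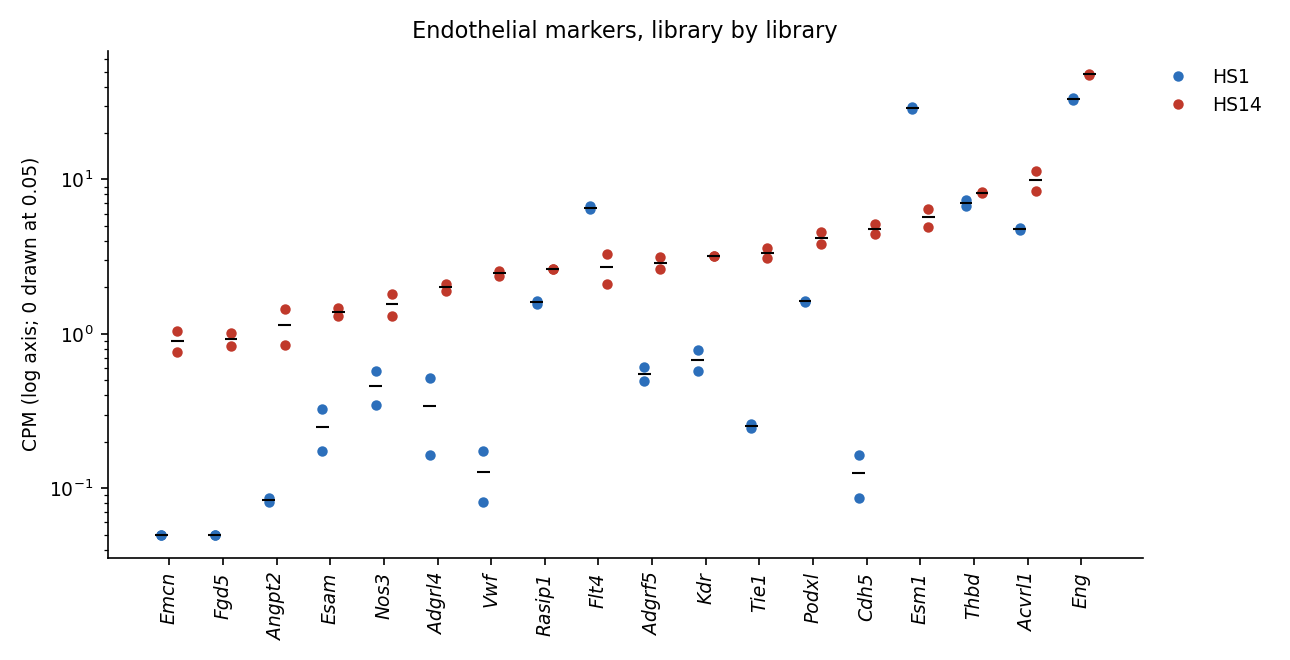
CPM on a log axis (y) of the 18 endothelial markers tested (x), ordered by their HS14 mean; each point is 1 library (blue HS1, red HS14), each bar the mean of 2, and a level of 0 is drawn at 0.05. Cdh5, Tie1, Vwf, Emcn and Fgd5 lie at or below 0.26 CPM in both HS1 libraries and between 0.758 and 5.15 CPM in HS14, while Esm1 and Flt4 lie lower in HS14.

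The other lists moved less uniformly. Of 6 Schwann cell and nerve markers, 4 were higher and 1 lower, with a median of 1.32 and a summed level between 33.0 and 40.4 CPM in HS1 and between 35.5 and 41.2 CPM in HS14. Ngfr and the secreted myelination factor Lgi4 rose, Lgi4 from 1.76 and 2.52 to 10.6 and 8.05 CPM (4.32-fold, adjusted p = 1.07e-06), as did Erbb3, from 3.69 and 3.38 to 12.8 and 10.5 CPM, and the calcium-binding protein S100b, from 2.66 and 2.0 to 4.32 and 4.76 CPM (adjusted p = 0.00675), while gliomedin (Gldn) fell 3.42-fold to 8.61 and 7.25 CPM. Of 6 smooth muscle and pericyte markers, Notch3, Pdgfrb and Rgs5 were higher and the cofactor Myocd and the leiomodin Lmod1 were lower, with a summed level between 88.2 and 89.2 CPM in HS1 and between 157 and 186 CPM in HS14. Rgs5, the defining pericyte marker at hand, had 2 and 2 counts in HS1 and 37 and 27 counts in HS14 (adjusted p = 0.000264), a level near 1 CPM. Like several endothelial markers, Rgs5 was admitted to the test only by its HS14 level, so it could pass only as higher. Myocd fell 10.5-fold from 9.25 and 7.72 to 0.83 and 0.801 CPM. Pdgfrb was at 58 and 56.9 CPM in HS1 and 102 and 96 CPM in HS14 (log2 0.76 ± 0.07, adjusted p = 1.02e-07). Of 13 leukocyte markers, 3 were higher and 3 lower, with a median of 0.17 and a summed level between 129 and 131 CPM in HS1 and between 90.8 and 95.7 CPM in HS14. The costimulatory ligand Cd80 fell 3.61-fold to 5.05 and 5.9 CPM. Spn and Fcgr2a were the other lower markers, and the largest fall of the list, a log2 fold change of −3.62, was among them. Arhgdib, Myo1g and Apbb1ip rose to between 3.2 and 7.0 CPM. The defining marker Lyz2 was at 1.39 and 1.39 CPM in HS1 and 2.21 and 1.94 CPM in HS14 and did not pass (adjusted p = 0.209). Of 5 adipocyte markers only lipoprotein lipase (Lpl), which muscle also expresses, was higher, at 51.7 and 47 CPM in HS1 and 104 and 95.4 CPM in HS14, with a list median of −0.16. Defining markers such as Pecam1, Ptprc, Cd68, Sox10, Acta2, Myh11, Cspg4 and Plin1 had no identifier at hand and were not analysed here.

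The Control libraries, which took no part in the choice of the DEGs, showed where the 2 suspension states lie. For 136 of the 179 DEGs higher in HS14 the Control mean lay between the means of HS1 and HS14. Of the rest, Control was above both for 33 genes and below both for 10. On the log2 scale with a pseudocount of 1 CPM, Control was nearer to HS14 for 106 of the 179 and nearer to HS1 for 73. The DEGs lower in HS14 differed in this respect: Control lay between for 123 of 157, above both for 32 and below both for 2, but it was nearer to HS1 for 115 and nearer to HS14 for 42. By count, most of the raised genes had thus been low on day 1 relative to Control, and most of the lowered genes were nearer to Control on day 1 than on day 14. HS7 cultures were nearer to HS14 than to HS1 for 150 of the 179 raised and 131 of the 157 lowered DEGs, and HS3 cultures for 110 and 84. These counts carry no test, and RLE size factors in place of TMM moved each of the Control counts by at most 1 gene.

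The order of the groups differed between genes that changed in the same direction. Dcn was highest on day 14, after 80.0 and 75 CPM in HS3 and 305 and 236 CPM in HS7. Col6a3 and Notch3 were higher in HS7 than in HS14, at 2249.6 and 2137 CPM for Col6a3 and 139 and 132 CPM for Notch3, and of the 31 raised structural matrix genes 27 had a higher mean in HS7 and 25 in HS3 than in HS14. Grem1 was highest in HS3, at 350.0 and 348 CPM, and had reached its day 14 level in HS7, at 15.9 and 16.4 CPM. Krt7 likewise dropped between HS3, at 40.8 and 51.9 CPM, and HS7, at 6.31 and 4.11 CPM. Every one of the 9 raised and 8 lowered sarcomere genes was higher in HS7 than in HS14, with Mylpf at 836 and 478 CPM in HS7.

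**Figure D5:**
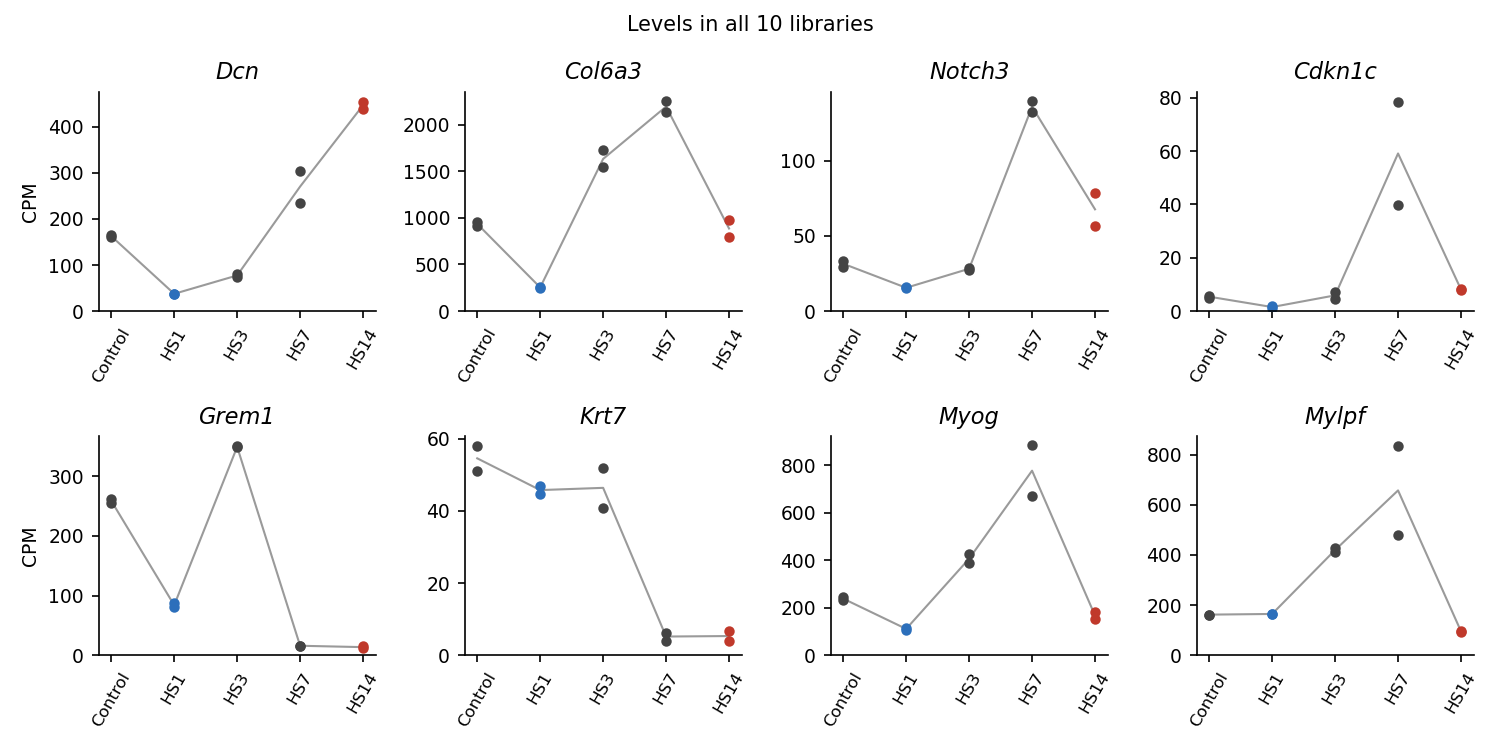
CPM (y axis, from 0) of 8 genes in the 5 groups (x axis, in order of days of suspension after Control); each point is 1 library, with HS1 in blue, HS14 in red and the other groups in grey, and the line joins the group means. Dcn is highest in HS14, Col6a3, Notch3, Cdkn1c, Myog and Mylpf are highest in HS7, and Grem1 and Krt7 are low in HS7 and HS14.

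Genes without a symbol held 73 of the DEGs higher and 71 of the DEGs lower in HS14, among 12289 tested. The largest rises among those with an average log2 CPM of at least 3 were those of ENSRNOG00000023143, at 5.57 and 5.99 CPM in HS1 and 23.2 and 21.8 CPM in HS14 with a log2 fold change of 1.94, and ENSRNOG00000004812, at 4.38 and 3.86 CPM in HS1 and 16.4 and 15.1 CPM in HS14 with 1.91. The largest falls were those of ENSRNOG00000001825, at 31.8 and 28.4 CPM in HS1 and 6.74 and 7.71 CPM in HS14 with −2.09, and ENSRNOG00000009636, at 387 and 357 CPM in HS1 and 97.4 and 96 CPM in HS14 with −1.97. In all 4 the groups did not overlap, which the choice of these identifiers required.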

How the data were processed

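RNA from cultured soleus myoblasts was sequenced from stranded poly(A) libraries in 5 groups of 2. The authors assigned reads to 32622 Ensembl genes and deposited the raw counts, not normalized, which are the only values used. The submitters' processing notes name STAR 2.7, featureCounts 1.6.4 and the build Rnor_6.0, while the study's methods name mRatBN7.2 and another STAR release; which of these made the counts could not be settled. How strand, read pairs and multiply mapped reads were handled is not given in the sources used here, so overlapping genes and near-identical copies are uncertain. Between 69.4% and 72.0% of gene counts from 1 to 20 were even numbers in each library, and the cause was not tested; if mates were counted separately, counting error is larger than the counts imply.

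The 2 HS14 and 2 HS1 libraries were fitted in edgeR 4.0.16 (R 4.3.3, limma 3.58.1) with filterByExpr, TMM and the robust quasi-likelihood test, and adjusted by Benjamini-Hochberg over 13015 genes. The biological coefficient of variation was 5.94% and 2 residual degrees of freedom remained. Thresholds (adjusted p 0.01, log2 fold change 1.5) are those of the study's methods. DESeq2 1.42.0, RLE size factors, no filter, a fit of all 10 libraries, the replicate number as a block, a lower log2 threshold of 1 and the omission of each library were tried as alternatives. On simulated counts for this comparison the fit was tested before use. Symbols came from a table of the study that lists 817 identifiers called against Control, 770 of them with a symbol; the fold changes and p-values in that table were not used. The 22 gene lists are described by counts and medians, with no set test. The members, lists and tests were chosen with earlier results of these data known.

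Genes named were up to 15 DEGs per direction with an average log2 CPM in edgeR of at least 3 and no overlap between groups, up to 4 members per list past the adjusted p with an average of at least 1, the defining markers of each cell type, and a short set of genes of interest to the study. In several places where a count of 5 or fewer is given, further members are named. These, and Ltbp2, Hpse, Fgd5, Thbd, Eng and the genes in the closing section, were named after their values were seen. Replicate numbers were taken from the sample names. Library deviations from the group mean correlated at 0.0140 across genes between libraries that share a number, so the numbers were not taken to pair the libraries. A few genes that this rule named are not reported here.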

Additional observations from a re-analysis of the deposited data

How the results depend on the processing

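With a log2 fold change beyond 1 in place of 1.5, 317 genes were DEGs higher and 318 lower in HS14, against 179 and 157. Under the other alternatives the counts stayed within 1.5 times the main ones: 135 and 112 with DESeq2, 183 and 157 with RLE size factors, 190 and 168 without an expression filter and 180 and 128 with all 10 libraries in one fit. Leaving out 1 library gave 134 to 177 DEGs higher and 122 to 148 lower, fewest without the first HS14 library; the group left with 1 library is then assumed to vary like the other. None of the 336 DEGs changed sign in any alternative where it had a value; 244 remained DEGs with DESeq2 and 223 to 263 when a library was left out. Same-numbered libraries did not deviate together (correlation 0.0140), and with the replicate block 200 genes were higher and 173 lower, with 1 residual degree of freedom, and 334 of the 336 DEGs remained.

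Calls on named genes were lost most often with all 10 libraries in one fit (8 genes, among them Tmem182, Mymk, Myh15, Mylpf, Casq2, Cdkn1c and Cacna1s), without the first HS14 library (6 genes: Myh15, Ryr3, Myo1g, Ptgfr, Cacna1c and Cacna1s), with DESeq2 (5 genes: Myh15, Pln, Ryr3, Cacna1c and Cacna1s) and without the first HS1 library (3 genes: Myh15, Pln and Cacna1s). Myh3 passed as lower without the second HS1 library (log2 −0.25, edgeR adjusted p = 0.00407). Of the list counts, developmental transcription factors had 3 higher with DESeq2, ion channels had 1 higher with DESeq2, 2 without the first HS1 library and 1 without the first HS14 library, and 5 lower without a filter and with the replicate block. With 2 libraries per group, genes near the floor of 3 counts carry little precision. The floors cover counting error only, and the SE values reflect only the spread between these libraries.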

Other observations

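Of the 192 DEGs with a symbol, 104 stand in none of the gene lists. Several of the more abundant ones are described here; they were picked after their values were seen and carry no weight beyond those values. Among the lowered genes, integrin alpha3 (Itga3), a laminin receptor, was at 749.6 and 667 CPM in HS1 and 192 and 207 CPM in HS14 (3.61-fold lower, edgeR adjusted p = 2.68e-13), with 122 and 126 CPM in HS3 and 101 and 120.4 CPM in HS7. P-cadherin (Cdh3), an adhesion protein of epithelia and myoblasts, fell 3.27-fold from 34.6 and 39.4 to 11.4 and 11.6 CPM. Catalase (Cat), which breaks down hydrogen peroxide, was at 71.2 and 87.5 CPM in HS1 and 26.8 and 29.8 CPM in HS14 (2.86-fold lower, edgeR adjusted p = 3.14e-09). Galnt13, a transferase that starts O-glycosylation, had 190 and 129 counts in HS1 and 4 and 0 counts in HS14 (edgeR adjusted p = 1.02e-08), and its Control libraries had 47 and 50 counts. Only its HS1 counts admitted Galnt13 to the test, so it could pass only as lower.

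Among the raised genes, Gli1, a transcription factor and target of Hedgehog signalling, was at 2.05 and 3.56 CPM in HS1 and 12.9 and 8.72 CPM in HS14 (3.81-fold, edgeR adjusted p = 1.23e-05), against 3.68 and 3.42 CPM in Control. The coagulation factor subunit F13a1, which crosslinks fibrin, was at 1.23 and 1.48 CPM in HS1 and 11.8 and 9.27 CPM in HS14 (7.68-fold, edgeR adjusted p = 1.51e-08). The ectonucleotidase Nt5e (CD73), a surface marker of mesenchymal cells, was at 1.11 and 1.08 CPM in HS1 and 7.33 and 4.85 CPM in HS14 (5.47-fold, edgeR adjusted p = 2.44e-06). In these 3 genes both HS14 libraries were above both HS1 libraries, but the groups did not overlap for 68.4% of all genes tested either.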
